A study of Mus musculus with 32 samples.

Results

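Glucose is taken up by transporters, phosphorylated by hexokinases, split and oxidised to pyruvate by the glycolytic enzymes, and then either reduced to lactate or passed into the mitochondrial tricarboxylic acid (TCA) cycle. A side branch, the pentose phosphate pathway, draws off glucose 6-phosphate to make NADPH and ribose. Many glycolytic genes are transcribed under the control of HIF-1, whose alpha subunit is hydroxylated by the EGLN prolyl hydroxylases and degraded when oxygen is plentiful. Macrophages activated by bacterial lipopolysaccharide (LPS) are known for raised glycolysis, accumulation of HIF-1 alpha and breaks in the TCA cycle. The mRNA levels of 40 genes of these pathways were followed in bone marrow-derived macrophages (BMDMs). The genes were chosen by symbol, and each was represented by its brightest probe. All 40 were on the array and all 40 passed the background filter, among 16037 genes that did. They comprised 5 genes of glucose uptake and hexokinases, 7 of upper glycolysis, 4 of lower glycolysis, 4 of lactate and pyruvate fate, 4 of the pentose phosphate pathway, 9 of the TCA cycle and 7 of the hypoxia pathway.

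The BMDMs were grown with macrophage colony-stimulating factor from the marrow of WT (C57BL/6) mice and of Ifnar1KO mice, which lack a chain of the receptor for type I interferons such as IFNβ. Cells of each genotype were left untreated or received LPS, IFN (IFNβ), zVAD, LPS+zVAD, IFN+zVAD, LPS+zVAD+Nec1 or IFN+zVAD+Nec1 for 6 h. LPS engages the receptor TLR4, zVAD blocks caspases, and Nec1 (Necrostatin-1) inhibits the kinase RipK1, through which LPS or IFN with zVAD can drive necroptosis. By the labels the doses were 100 ng/mL of LPS and 1000 U/mL of IFNβ, while the study's text gives others. The design held 2 genotypes, 8 treatments and 16 groups, each with 2 one-colour arrays, and this number limits the precision of every value below. The ages of the mice are not given in the sources used here, nor is it stated whether the 2 arrays of a group came from separate mice or cultures, so the p-values measure only the spread between arrays, which may be technical.

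All levels below are log2 quantile-normalized intensities of a gene's probe, and they compare groups, not genes. A member was called changed at an adjusted p under 0.05, from a limma fit of all 32 arrays with Benjamini-Hochberg adjustment over the 16037 genes. The probe of the deleted gene, Ifnar1, read 14.22 and 14.19 in untreated WT and 11.89 and 11.87 in untreated Ifnar1KO cells, and both WT arrays were above both Ifnar1KO arrays in 6 of 8 treatments. The exceptions were LPS+zVAD (12.38 and 11.18 in WT against 11.60 and 11.72) and IFN+zVAD+Nec1, where WT replicate 1 read 9.02 and replicate 2 12.73 against 11.39 and 11.16. Of 10 interferon-response genes, 10 rose with IFN in WT and 0 in Ifnar1KO cells, while 7 of 7 LPS-response genes rose with LPS in both genotypes. Each of the 4 slides held the 8 treatments of 1 genotype and 1 replicate number, so a difference between genotypes within a treatment cannot be told apart from a slide difference, whereas a treatment effect, and its difference between genotypes, can. All 8 macrophage markers were above background on every array, with a summed log2 intensity of 19.6 to 20.1 in each genotype. Neutrophil markers (7 of 8 passed the filter, without Retnlg) summed to 13.5 to 15.5 in WT and 15.6 to 16.8 in Ifnar1KO. Stromal markers (4 of 4) summed to 8.76 to 10.4 and 10.9 to 12.6. Both sums were thus higher on every Ifnar1KO array than on any WT array, but single neutrophil markers were mixed. Of the 7 neutrophil markers, 0 were called higher and 1 lower in Ifnar1KO than WT when untreated. With LPS these counts were 1 and 1, and with LPS+zVAD 3 and 1. For the 4 stromal markers they were 2 and 0, 3 and 0, and 1 and 0. The part of both marker lists in the differences between genotypes was not tested. B cell markers (4 of 4) summed to 8.66 to 10.3 in WT and 9.37 to 10.5 in Ifnar1KO, T and NK cell markers (3 of 6) to 12.2 to 13.5 and 11.8 to 13.2, and dendritic cell markers (3 of 4) to 15.7 to 16.4 and 15.2 to 16.03. Of the erythroid markers 1 of 4 passed, with sums of 5.46 to 7.05 and 5.55 to 6.68, and of the mast cell and basophil markers 0 of 4 passed. In bulk RNA, fewer cells of a type and less RNA per cell cannot be told apart.

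The array labelled Ifnar1KO LPS+zVAD+Nec1 replicate 2 went against its label. It correlated at r = 0.993 over all genes with Ifnar1KO IFN+zVAD+Nec1 replicate 2, above any replicate pair (0.947 to 0.991, of which its own pair was the lowest), and the cytokine gene Tnf read 9.99 there against 15.92 on replicate 1. The comparison that uses this array is given with and without it. The array also entered the estimate of spread shared by all groups, and so the standard errors and adjusted p-values of every other comparison. In its group the standard deviation of the 2 arrays was 2.54 for Vegfa and 2.56 for Slc2a6, the largest of the 16 groups. Pooled over the 16 groups it was 0.78 and 0.72. Counts from fits without this group are given at the end. In WT IFN+zVAD+Nec1, replicate 1 read low for single probes of the phosphoglucose isomerase gene Gpi1 (11.98 and 15.95 on replicates 1 and 2) and the fumarase gene Fh1 (8.78 and 12.67), while their next brightest probes read 15.80 and 15.65 (Gpi1) and 13.17 and 12.63 (Fh1).

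HIF-1 binds DNA at hypoxia response elements, whose core reads ACGTG. Sequence upstream of the start site was in RefSeq (GRCm38.p6) for 38 of the 40 genes, in 54 windows of 250 bases; Idh3a and Ndrg1 had none. The core, searched on both strands, so that CACGTG counts on each, stood in a window of 16 of the 38 genes (42.1%), against 18.5% of all 27025 genes, and in 42.6% of the members' windows against 16.6% of all 32851 windows. By group, it was found in 5 of 6 hypoxia pathway genes (Hif1a, Vegfa, Egln1, Egln3 and Bnip3), 3 of 5 for glucose uptake and hexokinases (Slc2a1, Hk2 and Hk3), 2 of 4 for lactate and pyruvate fate (Ldha and Slc16a3), 2 of 4 for lower glycolysis (Pgk1 and Pgam1), 2 of 7 for upper glycolysis (Aldoa and Pfkfb3), 2 of 8 for the TCA cycle (Mdh1 and Ogdh) and 0 of 4 for the pentose phosphate pathway. A match is a run of letters and does not show binding. The only Vegfa match lies in a stretch that reads as protein-coding sequence. Vegfa is therefore counted among the 5 hypoxia pathway genes without a match in non-coding promoter sequence. The windows below belong to 6 of the 16 genes with the core, 1 or more from glucose phosphorylation, upper and lower glycolysis, lactate and hypoxia signalling. Each is written 5′ to 3′ on the strand of its gene, with the core or its complement in capitals.
Hk2 (chr6:82774455-82774704, minus strand): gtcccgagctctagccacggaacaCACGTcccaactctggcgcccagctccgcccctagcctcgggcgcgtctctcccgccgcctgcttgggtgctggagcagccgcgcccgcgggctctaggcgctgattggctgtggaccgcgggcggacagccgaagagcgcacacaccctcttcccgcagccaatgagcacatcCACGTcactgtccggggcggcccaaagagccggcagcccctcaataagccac
Pfkfb3 (chr2:11502091-11502340, minus strand): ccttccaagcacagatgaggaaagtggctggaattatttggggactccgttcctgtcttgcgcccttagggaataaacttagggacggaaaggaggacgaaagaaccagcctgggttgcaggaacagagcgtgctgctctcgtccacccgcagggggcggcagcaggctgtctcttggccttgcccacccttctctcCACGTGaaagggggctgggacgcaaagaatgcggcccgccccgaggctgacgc
Pgk1 (chrX:106186850-106187099, plus strand): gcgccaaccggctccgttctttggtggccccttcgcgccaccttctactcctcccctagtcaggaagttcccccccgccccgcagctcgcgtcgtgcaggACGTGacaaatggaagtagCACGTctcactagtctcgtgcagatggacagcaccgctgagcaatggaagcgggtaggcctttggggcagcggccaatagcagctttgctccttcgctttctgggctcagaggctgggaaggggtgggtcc
Ldha (chr7:46845554-46845803, plus strand): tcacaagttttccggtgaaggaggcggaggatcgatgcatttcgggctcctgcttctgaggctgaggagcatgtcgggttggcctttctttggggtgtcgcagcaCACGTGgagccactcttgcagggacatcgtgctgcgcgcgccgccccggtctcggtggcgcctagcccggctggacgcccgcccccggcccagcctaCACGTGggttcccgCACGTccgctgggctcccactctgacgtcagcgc
Slc16a3 (chr11:120948817-120949066, plus strand): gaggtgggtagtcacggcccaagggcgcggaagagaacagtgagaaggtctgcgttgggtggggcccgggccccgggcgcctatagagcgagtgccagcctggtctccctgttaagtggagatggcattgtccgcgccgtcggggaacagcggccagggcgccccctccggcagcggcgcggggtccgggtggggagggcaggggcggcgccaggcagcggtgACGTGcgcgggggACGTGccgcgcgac
Vegfa (chr17:46025164-46025413, minus strand): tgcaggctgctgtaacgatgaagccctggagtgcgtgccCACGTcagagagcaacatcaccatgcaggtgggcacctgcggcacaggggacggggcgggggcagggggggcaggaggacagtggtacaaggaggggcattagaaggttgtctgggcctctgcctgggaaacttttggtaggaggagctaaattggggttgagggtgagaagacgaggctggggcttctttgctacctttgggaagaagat
The Ldha window held the core 5 times, those of Hk2, Pfkfb3, Pgk1 and Slc16a3 held it 2 times each, and the Vegfa window shown 1 time, while the window of the other Vegfa start site held it 0 times. Ldha, with the most matches, had the second narrowest range of levels of the 40 genes, and Vegfa the second widest, or the widest without the array that went against its label.

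The 40 genes differed widely in how far they moved between groups, as the heatmap of group means shows. The widest range of group means belonged to Egln3 (2.65 in WT IFN to 8.32 in Ifnar1KO LPS), a prolyl hydroxylase and HIF target. However, its probe was above background on 25 of 32 arrays, and its changes passed the test only with a block. With the slide as a block, it rose by 2.79 with LPS in Ifnar1KO cells (adjusted p = 0.0242). With the replicate number as a block, it was higher in Ifnar1KO than WT with LPS+zVAD (3.57, adjusted p = 0.0162). Vegfa, the angiogenic growth factor, ranged over 5.48 log2 units (8.50 in Ifnar1KO LPS to 13.97 in WT IFN+zVAD). Without the array that went against its label, Vegfa was lowest in Ifnar1KO LPS+zVAD+Nec1 (6.91), and its range of 7.06 was the widest of the 40. Adm, which encodes the peptide adrenomedullin, ranged over 5.09, Pfkfb3, the kinase that makes the phosphofructokinase activator fructose 2,6-bisphosphate, over 4.69, and Slc2a6, a glucose transporter family member, over 4.59. At the other end, Hk1, the constitutive hexokinase, ranged over 0.50, Ldha over 0.86, the mitochondrial malate dehydrogenase gene Mdh2 over 0.99, and Taldo1, Aldoa and Gapdh over 1.09 to 1.13. Hk1 depended on the probe, since its 2 dimmer probes rose by 1.33 and 1.42 with IFN in WT cells where the brightest gave -0.14. For 18 of the 40 genes the lowest group mean was that of WT LPS+zVAD. For 18 of the 40 the highest was that of Ifnar1KO LPS, and for 16 without the array that went against its label.

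**Figure D1:**
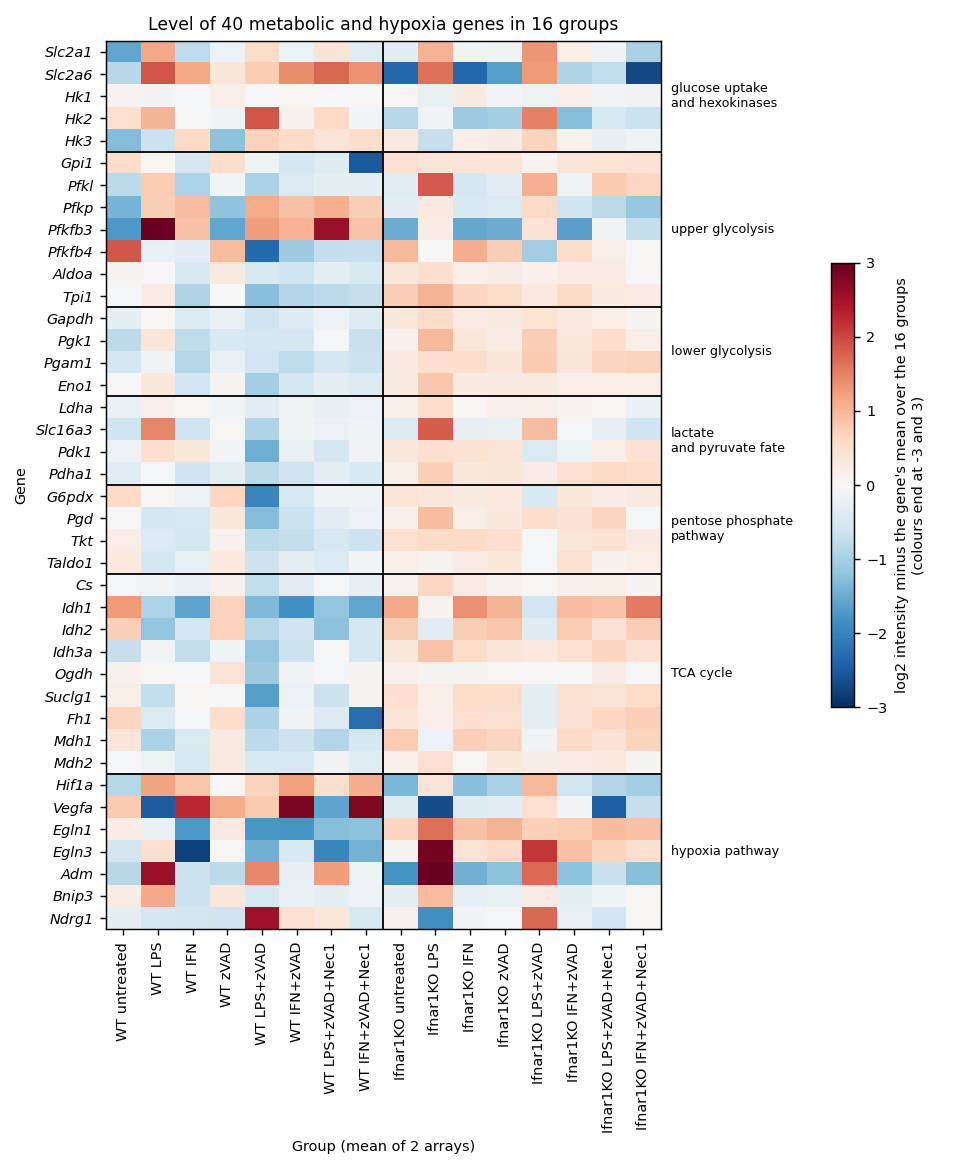
Mean log2 level of each of the 40 genes (rows, by pathway) in the 16 groups (columns), less that gene's mean over the 16 groups, with 2 arrays per group and colours ending at 3 log2 units either way. Pfkfb3 was highest in WT LPS. Vegfa and Ndrg1 were higher in both genotypes with LPS+zVAD than with LPS alone or LPS+zVAD+Nec1. In WT, Vegfa with LPS+zVAD was near its untreated level, and it was highest with IFN+zVAD.

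LPS in WT cells raised the genes of glucose entry and of the phosphofructokinase step, together with the hypoxia factor Hif1a. It lowered 4 of the 9 genes on the TCA cycle list, of which Idh1 and Mdh1 encode cytosolic enzymes. Of the 40 members, 10 were higher with LPS (background 16.3% of all genes) and 8 lower (24.8%), with a median log2 fold change of 0.28 over the members and -0.08 over all genes. Pfkfb3 read 11.36 and 12.05 in untreated WT cells and 16.20 and 16.59 with LPS. The groups were far apart, and the rise of 4.69 ± 0.35 (SE), adjusted p = 2.84e-08 was 25.8-fold. Slc2a1, the basal glucose transporter GLUT1, read 12.15 and 12.41 untreated and 14.32 and 15.67 with LPS (2.71 ± 0.61 (SE), adjusted p = 0.00156). Slc2a6 went from 15.02 and 14.52 to 17.51 and 17.46 (2.72 ± 0.67 (SE), adjusted p = 0.00319). Pfkp, a phosphofructokinase subunit, went from 10.59 and 10.66 to 13.12 and 12.40 (2.14 ± 0.21 (SE), adjusted p = 4.32e-07). The lactate exporter Slc16a3 (MCT4) also rose, by 2.07 ± 0.69 (SE), but its LPS arrays read 13.61 and 16.07, so that replicate 2 stood far above replicate 1. By contrast, Pfkfb4, the sister kinase of Pfkfb3, fell from 13.89 and 14.10 to 11.37 and 12.45 (-2.09 ± 0.30 (SE), adjusted p = 2.39e-05).

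In the TCA cycle, 4 of 9 members fell with LPS in WT cells and 1 rose. Idh1, the cytosolic NADP-dependent isocitrate dehydrogenase, read 12.28 and 11.93 untreated and 10.16 and 9.66 with LPS (-2.20 ± 0.49 (SE), adjusted p = 0.0013). Its mitochondrial counterpart Idh2 fell by 1.90 on the log2 scale and the cytosolic malate dehydrogenase Mdh1 by 1.31. Idh3a, a subunit of the NAD-dependent isocitrate dehydrogenase, rose by 0.61. The isocitrate dehydrogenases therefore did not move as a block. In the pentose phosphate pathway 2 of 4 members fell (Tkt and Taldo1, the transketolase and transaldolase of the non-oxidative branch) and 0 rose. G6pdx, which encodes the first enzyme of the pathway, read 15.72 and 15.60 and then 15.06 and 15.16, and did not pass the test (adjusted p = 0.138).

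The hypoxia genes split. Hif1a read 11.22 and 11.46 untreated and 13.13 and 13.69 with LPS (2.07 ± 0.35 (SE), adjusted p = 0.000134), and Adm 6.52 and 7.03 and then 10.75 and 9.61 (3.41 ± 0.40 (SE), adjusted p = 3.06e-06). Vegfa went the other way, from 11.78 and 12.11 to 7.75 and 9.58 (-3.28 ± 0.74 (SE), adjusted p = 0.00145). Bnip3, a mitophagy receptor, read 13.49 and 13.60 and then 13.15 and 15.74, Ldha 17.09 and 17.06 and then 17.15 and 17.71, and Pdk1, a kinase that switches off pyruvate dehydrogenase, 10.22 and 10.19 and then 10.21 and 11.57. None of these passed the test (adjusted p = 0.235, 0.165 and 0.15). When arrays were instead aligned at their 75th percentiles, 15 members were higher and 5 lower (18.6% and 18.5% of all genes). The 5 gained were Eno1, Gapdh, Hk3, Ldha and Pgam1, all higher. The calls of Suclg1, Taldo1 and Tkt ended, which left 0 of 4 pentose phosphate genes and 3 of 9 TCA cycle genes lower.

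LPS in Ifnar1KO cells gave 11 members higher (background 10.9%) and 6 lower (13.9%), with a median of 0.29 against -0.06 over all genes. In both genotypes 12 members were called with the same sign and 0 with opposite signs, 66.7% of the 18 called in WT and 70.6% of the 17 called in Ifnar1KO, and they included Slc2a6, Pfkl, Pfkfb3, Slc16a3, Hif1a, Vegfa and Adm. Adm read 5.95 and 5.65 untreated and 10.69 and 11.10 with LPS (5.09 ± 0.40 (SE), adjusted p = 1.07e-06), and Slc2a6 13.10 and 13.40 and 17.21 and 17.31 (4.01 ± 0.67 (SE), adjusted p = 0.000354). Slc16a3 read 12.88 and 13.09 and 15.13 and 15.24 (2.20 ± 0.69 (SE), adjusted p = 0.025). These pairs were closer than those of WT cells, where the Slc16a3 arrays with LPS lay 2.45 log2 units apart. Pfkl, the liver-type phosphofructokinase subunit, went from 10.53 and 10.75 to 12.58 and 13.09 (2.19 ± 0.57 (SE), adjusted p = 0.00791), and Hif1a from 10.83 and 10.84 to 12.55 and 12.65 (1.76 ± 0.35 (SE), adjusted p = 0.00134). Vegfa fell from 10.59 and 10.96 to 8.23 and 8.76 (-2.28 ± 0.74 (SE), adjusted p = 0.0289), and Ndrg1, a stress- and hypoxia-induced gene, from 13.80 and 13.64 to 11.58 and 11.91 (-1.98 ± 0.42 (SE), adjusted p = 0.00213). Both genes were thus below the untreated level on each LPS array. Slc2a1 read 13.65 and 13.41 and then 14.92 and 14.88 (adjusted p = 0.119, and 0.00414 with the slide as a block). The calls of Vegfa and Slc16a3 ended when any of the 4 arrays was left out (adjusted p up to 0.164 and 0.118), and that of Pfkl without untreated replicate 1 or LPS replicate 2 (up to 0.0729). Leaving out any 1 of the 4 arrays left 6 to 9 of the 17 calls. With the 75th-percentile shift 14 members were higher and 3 lower (11.8% and 10.0% of all genes).

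The response to LPS differed between genotypes most clearly at Pfkfb3. With LPS it read 16.20 and 16.59 in WT and 13.55 and 13.75 in Ifnar1KO cells, although both genotypes began near the same level (11.94 and 11.97 in untreated Ifnar1KO). The rise in Ifnar1KO was 1.69 ± 0.35 (SE), adjusted p = 0.00153, and it was smaller than in WT by a tested difference of -2.99 ± 0.49 (SE), adjusted p = 0.000903. In the difference between genotypes, 1 member was higher in Ifnar1KO (background 3.03%) and 3 lower (3.6%). With the slide as a block 10 were called, but the share of all genes called with that block is not given, here or below. Pfkp rose from 11.64 and 11.77 to 12.35 and 12.25 in Ifnar1KO cells, less than in WT (-1.54 ± 0.29 (SE), adjusted p = 0.00285). Hk3, a hexokinase of myeloid cells, read 13.85 and 13.68 and then 14.71 and 14.10 in WT but fell from 15.25 and 15.42 to 14.38 and 14.37 in Ifnar1KO (-1.60 ± 0.37 (SE), adjusted p = 0.0109). Untreated Ifnar1KO cells thus began above WT, and with LPS the genotypes overlapped. Pgd, the second oxidative enzyme of the pentose phosphate pathway, read 15.98 and 15.96 and then 15.36 and 15.54 in WT but rose from 16.11 and 16.19 to 16.93 and 16.92 in Ifnar1KO (1.29 ± 0.36 (SE), adjusted p = 0.0387). The call of Pgd ended without any of 7 of the 8 arrays, all but WT LPS replicate 2 (adjusted p up to 0.153), and that of Hk3 without WT LPS replicate 1 (0.0814).

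**Figure D2:**
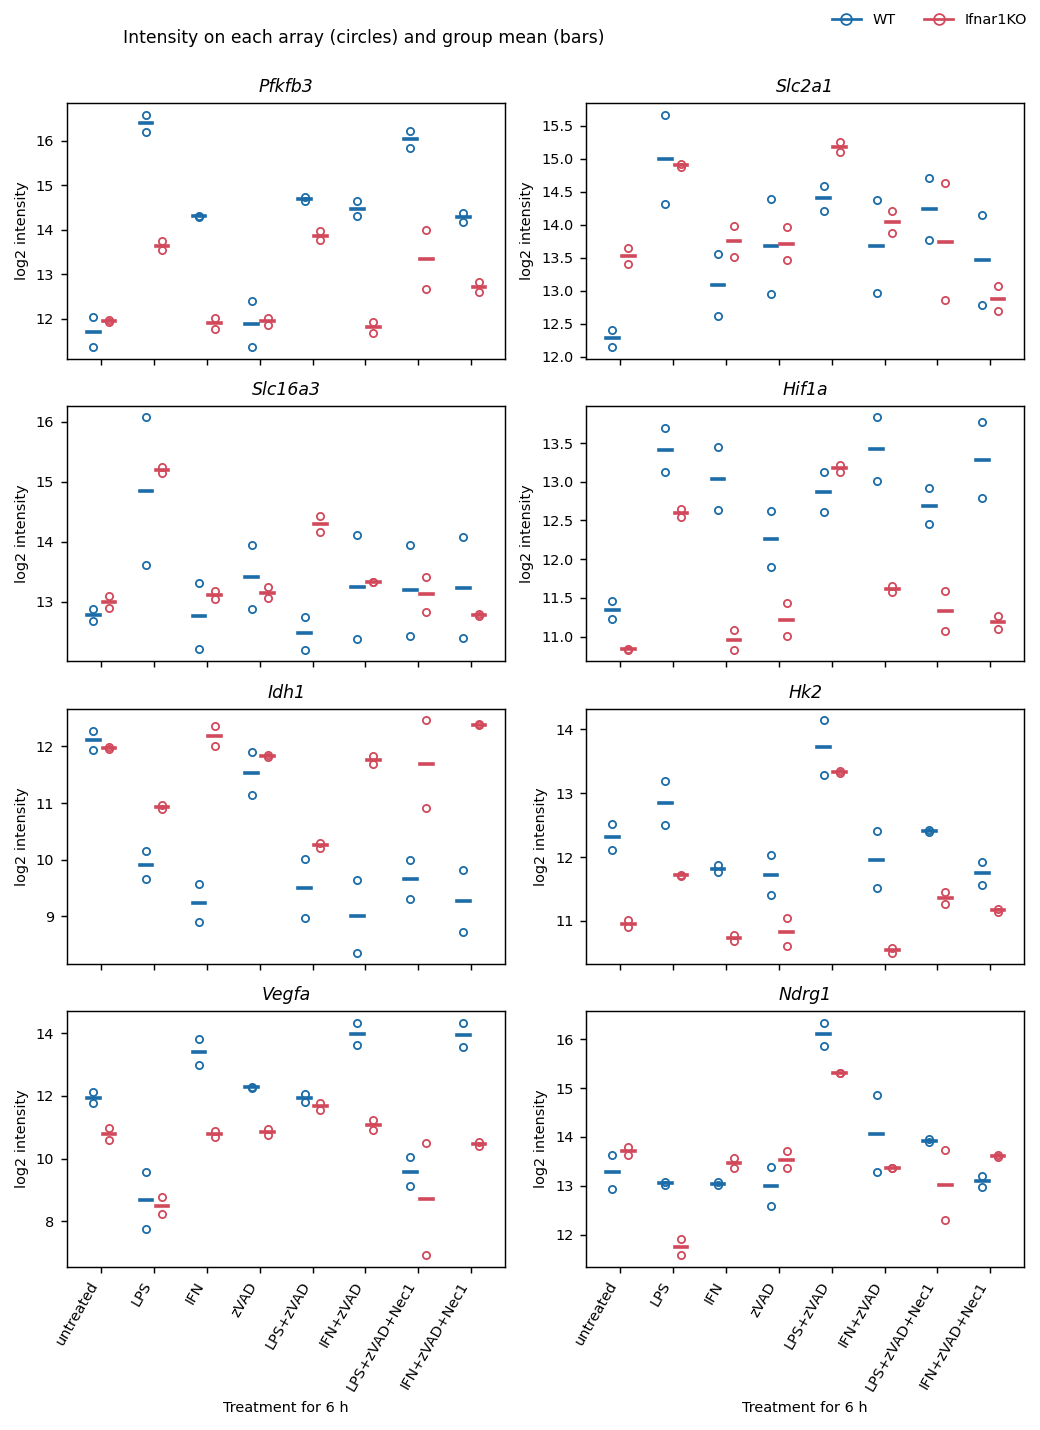
Log2 level of 8 genes in the 16 groups, with a circle for each array and a bar for the mean of the 2 arrays. Pfkfb3 with LPS lay near 16 in WT and under 14 in Ifnar1KO cells, and Vegfa and Ndrg1 were raised in both genotypes with LPS+zVAD over LPS.

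Other genes of the same pathways, listed beside the 40, were counted in the same fits. Of all genes, 16.3% were higher and 24.8% lower with LPS in WT cells, and 10.9% and 13.9% in Ifnar1KO cells. These other lists, here and below, were not recounted with the 75th-percentile shift. With that shift, the count of pentose phosphate members lower with LPS in WT cells went from 2 of 4 to 0 of 4. Whether the falls of the other pentose phosphate genes depend on the scaling was not tested. In WT cells with LPS, 10 of 18 other TCA cycle genes fell and 0 rose, among them Got1 (-2.63), the cytosolic aspartate aminotransferase, and Idh3g (-1.66). Of 8 other pentose phosphate genes 7 fell, with Shpk, the sedoheptulose kinase, at -2.16, and 1 rose (Rpe, 1.38). Of 23 other glycolysis genes 2 rose and 8 fell. The glycerol 3-phosphate dehydrogenases moved in opposite directions, with mitochondrial Gpd2 at 3.92 and cytosolic Gpd1 at -3.54, and in Ifnar1KO cells they did so as well (3.74 and -2.99). Of 11 other pyruvate dehydrogenase genes 2 rose and 2 fell, with the inhibitory kinase Pdk2 at -4.41, and of 21 other hypoxia genes 4 rose and 4 fell, with Ak4 at 6.23 and Lox at 6.00. In Ifnar1KO cells with LPS the counts were 2 higher and 4 lower of 18 for the TCA cycle, 0 and 0 of 8 for the pentose phosphate pathway, 2 and 3 of 23 for glycolysis, 2 and 2 of 11 for pyruvate dehydrogenase, where the pyruvate carboxylase gene Pcx rose by 2.61, and 4 and 2 of 21 for hypoxia.

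IFN in WT cells raised Pfkfb3, Pfkp, Hk3, Hif1a and Slc2a6 and lowered Idh1, Pfkfb4 and Egln1 among others. Of the 40, 5 were higher (background 13.7%) and 11 lower (21.6%), with a median of -0.26 against -0.17 over all genes. Idh1 read 12.28 and 11.93 untreated and 9.57 and 8.90 with IFN (-2.87 ± 0.49 (SE), adjusted p = 0.000151). Pfkfb3 rose from 11.36 and 12.05 to 14.32 and 14.28 (2.59 ± 0.35 (SE), adjusted p = 1.21e-05), Pfkp from 10.59 and 10.66 to 13.08 and 12.80 (2.31 ± 0.21 (SE), adjusted p = 9.74e-08), and Hk3 from 13.85 and 13.68 to 15.90 and 15.43 (1.90 ± 0.26 (SE), adjusted p = 1.44e-05). Hk3 phosphorylates glucose, Pfkp carries out the phosphofructokinase step, and Pfkfb3 makes an activator of it. Hif1a went from 11.22 and 11.46 to 12.63 and 13.45 (1.70 ± 0.35 (SE), adjusted p = 0.000997), and Slc2a6 from 15.02 and 14.52 to 16.41 and 17.08 (1.98 ± 0.67 (SE), adjusted p = 0.0282). The call of Slc2a6 ended when any of the 4 arrays was left out (adjusted p up to 0.157). Pfkfb4 fell from 13.89 and 14.10 to 11.66 and 11.90 (-2.22 ± 0.30 (SE), adjusted p = 1.41e-05), and Egln1, the main oxygen-sensing prolyl hydroxylase, from 7.18 and 7.62 to 5.38 and 5.51 (-1.96 ± 0.44 (SE), adjusted p = 0.00197).

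Several members that LPS moved in WT cells gave smaller values with IFN, which was compared with the same untreated arrays. Slc2a1 read 12.62 and 13.56, Slc16a3 12.20 and 13.32 and Adm 6.78 and 7.13, with log2 fold changes of 0.81, -0.01 and 0.18 that did not pass the test. Vegfa read 13.00 and 13.82 with IFN, above both untreated arrays, where LPS had lowered it, but its change of 1.47 was not called (adjusted p = 0.136). The shares of members called lay near those of all genes, and under the 75th-percentile shift the split turned to 6 higher and 4 lower (14.8% and 14.7% of all genes), where Aldoa, Mdh2 and Taldo1, called lower with quantile normalization, took small positive values (0.07, 0.06 and 0.11). Leaving out any 1 of the 4 arrays left 9 or 10 of the 16 calls. The other pathway lists gave 0 higher and 9 lower of 18 for the TCA cycle, 1 and 5 of 8 for the pentose phosphate pathway, 2 and 6 of 23 for glycolysis, 1 and 2 of 11 for pyruvate dehydrogenase, where Pdk3 rose by 3.08 and Pdk2 changed by -2.79, and 1 and 2 of 21 for hypoxia.

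In Ifnar1KO cells, which lack the IFNβ receptor chain, IFN moved none of the 40 members past the test, 0% of all genes being called, and 0 of the 40 had an unadjusted p under 0.05. Idh1 read 11.99 and 11.95 untreated and 12.37 and 12.01 with IFN, Pfkfb3 11.94 and 11.97 and 11.77 and 12.02, and Hif1a 10.83 and 10.84 and 10.83 and 11.09. The 95% intervals of these changes were -0.80 to 1.24, -0.78 to 0.67 and -0.62 to 0.87. The difference between genotypes was called higher in Ifnar1KO for 5 members (background 10.3%) and lower for 4 (8.54%). It was 3.09 ± 0.69 (SE), adjusted p = 0.00396 for Idh1, -2.65 ± 0.49 (SE), adjusted p = 0.000862 for Pfkfb3 and -2.45 ± 0.29 (SE), adjusted p = 1.2e-05 for Pfkp. It was also called for Pfkfb4 (2.33), Egln1 (2.18), Hk3 (-2.02), Hif1a (-1.58), Tkt (0.82) and Mdh1 (0.75). With the 75th-percentile shift 3 were higher and 4 lower (6.39% and 9.21% of all genes). The call of Hif1a ended without any of 7 of the 8 arrays, all but WT IFN replicate 1 (adjusted p up to 0.154). That of Tkt ended without replicate 1 of untreated WT or Ifnar1KO, WT IFN replicate 2 or either Ifnar1KO IFN array (up to 0.109), and that of Egln1 without WT untreated replicate 2, Ifnar1KO untreated replicate 1, WT IFN replicate 1 or Ifnar1KO IFN replicate 2 (up to 0.0800).

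**Figure D3:**
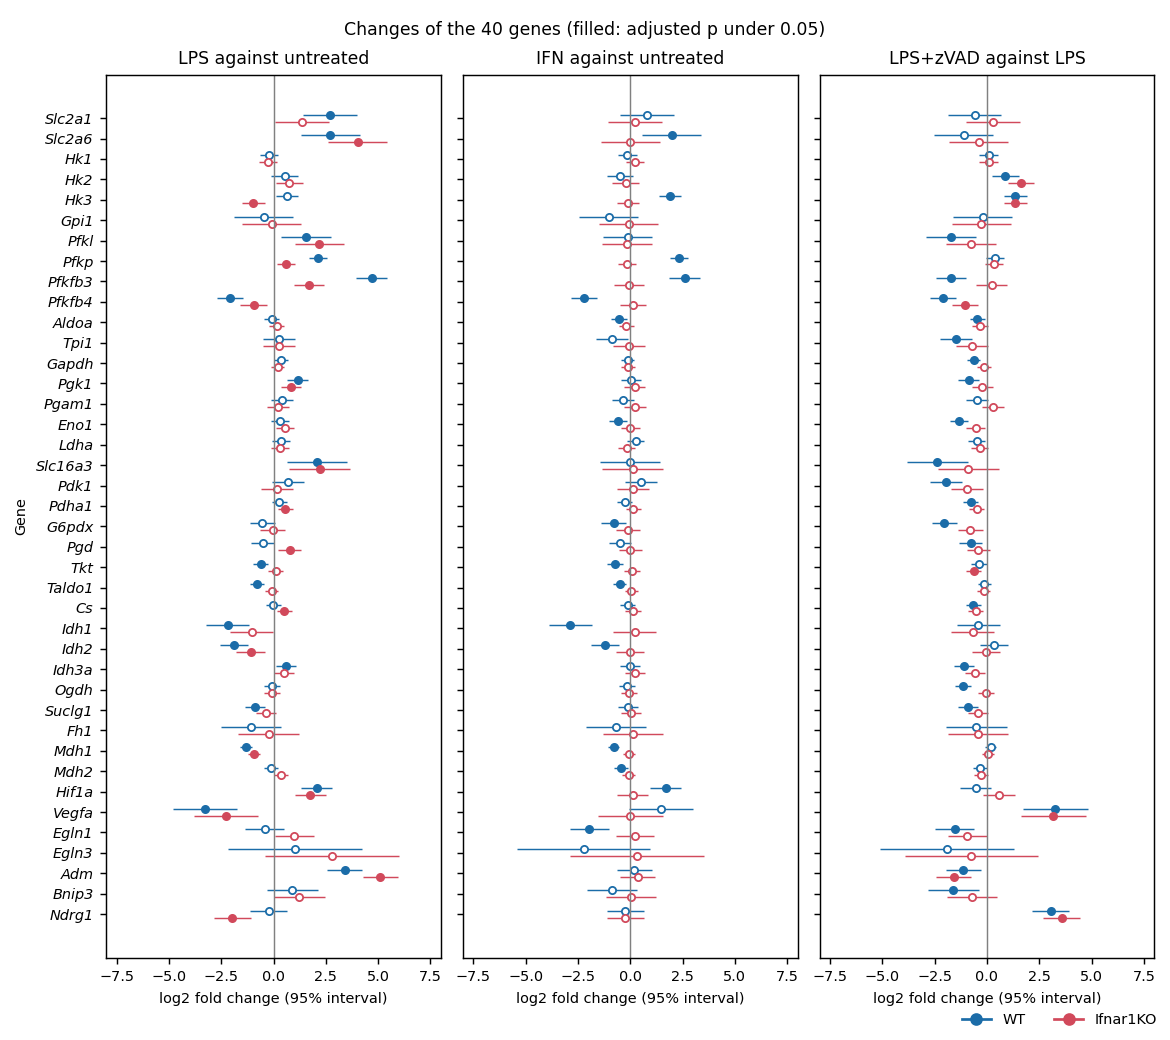
Log2 fold change of each member in WT and Ifnar1KO cells for LPS against untreated, IFN against untreated and LPS+zVAD against LPS, with 95% intervals from the limma fit of 32 arrays and filled symbols for adjusted p under 0.05. No member is filled for IFN in Ifnar1KO cells, and Vegfa and Ndrg1 are filled and positive in both genotypes for LPS+zVAD against LPS.

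zVAD alone called none of the 40 members against untreated in WT (background 0.00624%) or in Ifnar1KO cells (0%), with 4 and 0 members at an unadjusted p under 0.05. The largest change of these 4 was that of Slc2a1, which read 12.96 and 14.40 in WT with zVAD, a change of 1.40 (adjusted p = 0.828). The 2 Ifnar1KO zVAD arrays read 12.84 and 10.13 for Tnf and 13.06 and 7.95 for Irg1, another LPS-response gene, but 4.45 and 4.37 for Il6. In WT, Tnf read 10.47 and 10.22 untreated and 13.50 and 14.24 with zVAD, yet 0 of 7 LPS-response genes were called. A lack of calls with zVAD therefore does not show a lack of change. Adding zVAD to IFN called 0 members in WT (background 0%) and 0 in Ifnar1KO (0.00624%), with 2 and 1 at an unadjusted p under 0.05, and adding Nec1 to IFN+zVAD called 0 in WT (0%) and 0 in Ifnar1KO (1.58%), with 3 and 3. Gpi1 and Fh1 were among the 3 in WT, where replicate 1 had the low spots described above.

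Adding zVAD to LPS in WT cells lowered members of most of the pathways and raised Vegfa and Ndrg1. Of the 40 members, 4 were higher than with LPS alone (background 12.9%) and 20 lower (21.7%), with a median of -0.65 over the members and -0.04 over all genes. The members that fell were 5 of 7 in upper glycolysis, 3 of 4 in lower glycolysis, 3 of 4 of lactate and pyruvate fate, 2 of 4 in the pentose phosphate pathway, 4 of 9 in the TCA cycle and 3 of 7 in the hypoxia pathway. G6pdx went from 15.06 and 15.16 with LPS to 13.78 and 12.35 with LPS+zVAD (-2.04 ± 0.28 (SE), adjusted p = 2.28e-05), and Pfkfb4 from 11.37 and 12.45 to 9.91 and 9.69 (-2.11 ± 0.30 (SE), adjusted p = 2.81e-05). Pfkfb3, raised by LPS, came down to 14.64 and 14.73 (-1.71 ± 0.35 (SE), adjusted p = 0.000762), still above its untreated arrays. Pdk1 read 8.91 and 8.96 (-1.96 ± 0.37 (SE), adjusted p = 0.000382), below its untreated arrays. Slc16a3 read 12.19 and 12.74 (-2.37 ± 0.69 (SE), adjusted p = 0.0114) and Pfkl 9.57 and 10.53 (-1.71 ± 0.57 (SE), adjusted p = 0.0245). The calls of Slc16a3 and Pfkl ended without WT LPS replicate 2 or WT LPS+zVAD replicate 1 (adjusted p up to 0.299 and 0.394). The count of 24 became 14 without WT LPS replicate 2, 15 without WT LPS+zVAD replicate 2 and 4 in a fit of only these groups. Under the 75th-percentile shift 3 members were higher and 14 lower (13.0% and 19.9% of all genes). The calls of Aldoa, Bnip3, Cs, Gapdh, Hk2, Pgd and Pgk1 ended, and 1 of 4 in lower glycolysis fell. The other pathway lists gave 2 higher and 5 lower of 23 for glycolysis, 1 and 4 of 18 for the TCA cycle, 1 and 2 of 8 for the pentose phosphate pathway, 2 and 3 of 11 for pyruvate dehydrogenase and 1 and 6 of 21 for hypoxia.

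The 4 members that rose were Vegfa, Ndrg1, Hk2 and Hk3. Vegfa read 7.75 and 9.58 with LPS and 11.82 and 12.05 with LPS+zVAD (3.27 ± 0.74 (SE), adjusted p = 0.0018), within the range of its untreated arrays. Ndrg1 rose from 13.02 and 13.09 to 15.86 and 16.34 (3.05 ± 0.42 (SE), adjusted p = 2.16e-05), well above the untreated arrays. Hk2, the inducible hexokinase, read 12.50 and 13.19 and then 13.29 and 14.14 (0.87 ± 0.30 (SE), adjusted p = 0.0302). Hif1a read 12.61 and 13.12, a change of -0.54 that was called only with the slide as a block (adjusted p = 0.0256). Both genes of the hypoxia list that rose did so while Egln1 (-1.55), Bnip3 (-1.60) and Adm (-1.13) fell, so the list did not move in 1 direction.

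In Ifnar1KO cells, adding zVAD to LPS raised 4 members (background 4.58%) and lowered 3 (3.67%), with a median of -0.36 against -0.06. With the slide as a block 13 were called (share of all genes not given). The 4 that rose were again Vegfa, Ndrg1, Hk2 and Hk3. Vegfa went from 8.23 and 8.76 to 11.56 and 11.77 (3.17 ± 0.74 (SE), adjusted p = 0.0106), Ndrg1 from 11.58 and 11.91 to 15.32 and 15.31 (3.57 ± 0.42 (SE), adjusted p = 3.76e-05), and Hk2 from 11.70 and 11.73 to 13.35 and 13.32 (1.62 ± 0.30 (SE), adjusted p = 0.00226). Each of these groups was clear of the other. Hk3 rose from 14.38 and 14.37 to 15.70 and 15.75 (1.35 ± 0.26 (SE), adjusted p = 0.00293), and Adm fell from 10.69 and 11.10 to 9.17 and 9.45 (-1.58 ± 0.40 (SE), adjusted p = 0.0183). The other falls were smaller, -1.06 for Pfkfb4 and -0.63 for Tkt. G6pdx read 15.40 and 15.40 and then 14.47 and 14.74, and was called only with the block. So was Hif1a, which read 12.55 and 12.65 and then 13.13 and 13.22 (0.57, adjusted p = 0.042 with the block). The shared calls with WT were 6, which is 25% of the 24 in WT and 85.7% of the 7 in Ifnar1KO. Without any of the 4 arrays the calls of Adm, Pfkfb4 and Tkt ended (adjusted p up to 0.175, 0.283 and 0.252), and without Ifnar1KO LPS replicate 1 or either LPS+zVAD array that of Vegfa (up to 0.110), so that 3 or 4 of the 7 remained in number. With the 75th-percentile shift 4 were higher and 1 lower (3.40% and 2.59% of all genes).

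The effect of zVAD on LPS-treated cells was tested between genotypes as well. Of the members, 2 were called higher in Ifnar1KO (background 2.71%) and 0 lower (0.898%). With the slide as a block 4 were called (share of all genes not given). Pfkfb3, which fell in WT cells, read 13.55 and 13.75 and then 13.77 and 13.97 in Ifnar1KO (1.93 ± 0.49 (SE), adjusted p = 0.0343). Ogdh, a subunit of the 2-oxoglutarate dehydrogenase, read 13.71 and 13.78 and then 12.97 and 12.21 in WT but 13.79 and 13.75 and then 13.67 and 13.74 in Ifnar1KO (1.0978 ± 0.26 (SE), adjusted p = 0.0241). The third Ogdh probe went the other way in WT (0.67). The Pfkfb3 call ended without any of 7 of the 8 arrays, all but WT LPS replicate 1, and the Ogdh call without any of 6, all but WT LPS replicate 1 and WT LPS+zVAD replicate 1 (adjusted p up to 0.151 and 0.116), and the count ranged from 0 to 9 over the 8. That a member was called in WT and not in Ifnar1KO does not by itself show a difference, and for the other 38 the difference did not pass the test. With the slide as a block the difference for Hif1a did (1.12, adjusted p = 0.0113).

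Nec1 added to LPS+zVAD in WT cells lowered Vegfa, Ndrg1 and Hk2 and raised G6pdx, Pfkfb4 and Pfkfb3 among others. Of the 40, 10 were higher than with LPS+zVAD (background 18.7%) and 3 lower (9.78%), with a median of 0.36 against 0.02 over all genes. Vegfa read 11.82 and 12.05 and then 9.13 and 10.03 (-2.35 ± 0.74 (SE), adjusted p = 0.0214), Ndrg1 15.86 and 16.34 and then 13.89 and 13.95 (-2.18 ± 0.42 (SE), adjusted p = 0.000695), and Hk2 13.29 and 14.14 and then 12.40 and 12.43 (-1.30 ± 0.30 (SE), adjusted p = 0.00289). These were the members that fell. G6pdx went to 14.96 and 14.88 (1.85 ± 0.28 (SE), adjusted p = 9.04e-05), Pfkfb4 to 11.22 and 11.59 (1.60 ± 0.30 (SE), adjusted p = 0.000514), and Pfkfb3 to 15.83 and 16.23 (1.35 ± 0.35 (SE), adjusted p = 0.00614). Idh3a and Ogdh of the TCA cycle rose by 1.16 and 1.04, but the third Ogdh probe changed by -0.55. These contrasts and those of zVAD share the LPS+zVAD arrays, so their values stand side by side and no overlap was computed. The Vegfa call ended without either LPS+zVAD array or Nec1 replicate 1, that of Pfkfb3 without Nec1 replicate 2 and that of Hk2 without LPS+zVAD replicate 2 (adjusted p up to 0.152, 0.0707 and 0.0862), and without the last array the count of 13 became 6. It became 0 in a fit of only these groups, and with the 75th-percentile shift the calls of Cs, Eno1 and Pgd ended. Of 23 other glycolysis genes 3 were higher and 2 lower, with a median of -0.23, and of 18 other TCA cycle genes 5 and 1.

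In Ifnar1KO cells Nec1 gave 4 members higher (background 11.1%) and 8 lower (7.65%), with a median of 0.02 against 0.07, but this comparison holds the array that went against its label. Vegfa read 11.56 and 11.77 with LPS+zVAD and 6.91 and 10.51 on Nec1 replicates 1 and 2, and Ndrg1 15.32 and 15.31 and then 12.29 and 13.72. Both genes were lower on each Nec1 array, with changes of -2.96 and -2.31 in the fit with all arrays. Without replicate 2, 8 members were called, 1 higher (background 3.97%) and 7 lower (5.13%), and all 8 were among the 12. Vegfa then changed by -4.76, Ndrg1 by -3.02, Hk2 by -2.07, Adm by -1.67, Hif1a by -1.58, Pfkp by -1.35, Hk3 by -1.25 and Pfkfb4 by 1.33. Slc2a6 (-2.0003 with all arrays and -0.19 without replicate 2) and Idh1 (1.43 and 0.66) were called only with replicate 2. With the 75th-percentile shift 0 were higher and 8 lower (6.18% and 8.43% of all genes). Without either LPS+zVAD array the count of 12 became 6.

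Compared within a treatment, Ifnar1KO cells showed higher levels of many of the 40 genes, most of all with LPS+zVAD, but here the genotype cannot be told apart from the slide. In untreated cells 5 members were higher (background 5.38%) and 1 lower (3.35%), with a median of 0.26 against 0.00. Hk3 read 13.85 and 13.68 in WT and 15.25 and 15.42 in Ifnar1KO (1.57 ± 0.26 (SE), adjusted p = 0.000581), and Hk2 12.11 and 12.52 and 11.02 and 10.90 (-1.36 ± 0.30 (SE), adjusted p = 0.00741), so the hexokinases differed in opposite directions. Pfkp (1.08), Idh3a (1.02), Pgk1 (0.94) and Gapdh (0.65) were higher. The count of 6 became 2 without WT untreated replicate 2 and 3 without Ifnar1KO untreated replicate 2, and the calls of Hk2, Idh3a, Pgk1 and Gapdh were among those lost with 1 array (adjusted p up to 0.112, 0.138, 0.169 and 0.178). With the 75th-percentile shift 3 were higher and 0 lower (3.11% and 2.75% of all genes).

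With LPS, 12 members were higher in Ifnar1KO (background 18.3%) and 3 lower (10.1%), with a median of 0.50 against 0.09. The lower ones were Pfkfb3 (-2.75 ± 0.35 (SE), adjusted p = 8.94e-06), Ndrg1 (-1.31 ± 0.42 (SE), adjusted p = 0.0253) and Hk2 (-1.13 ± 0.30 (SE), adjusted p = 0.0081). Egln1 read 6.01 and 7.94 in WT and 8.65 and 8.99 in Ifnar1KO (1.85 ± 0.44 (SE), adjusted p = 0.00394). Of the pentose phosphate genes 3 of 4 were higher, with Pgd at 1.47 and Tkt at 0.99, and of the TCA cycle genes 5 of 9, with Idh3a at 0.92 and Suclg1, a succinyl-CoA ligase subunit, at 0.90. With the 75th-percentile shift 5 were higher and 4 lower (13.3% and 11.2% of all genes). The calls of Tkt, Suclg1, Taldo1, Cs and Mdh2 were among those that ended, which left 1 of 4 pentose phosphate and 2 of 9 TCA cycle genes higher. The call of Ndrg1 ended without any of the 4 arrays (adjusted p up to 0.140), those of Egln1 and Idh3a without WT LPS replicate 1 (0.147 and 0.0853), that of Hk2 without WT LPS replicate 2 (0.111) and that of Suclg1 without Ifnar1KO LPS replicate 2 (0.0767).

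With LPS+zVAD, 23 members were higher in Ifnar1KO (background 25.7%) and 0 lower (11.7%), with a median of 0.75 against 0.13 over all genes. Egln1 read 5.43 and 5.42 in WT and 7.65 and 8.10 in Ifnar1KO (2.45 ± 0.44 (SE), adjusted p = 0.00025), Pgd 14.96 and 14.39 and 16.48 and 16.53 (1.83 ± 0.26 (SE), adjusted p = 2.07e-05), and Tpi1, the triose phosphate isomerase, 13.68 and 13.64 and 15.00 and 15.45 (1.56 ± 0.36 (SE), adjusted p = 0.0022). The higher members covered all 4 of lower glycolysis, all 4 of lactate and pyruvate fate, all 4 of the pentose phosphate pathway, 6 of 9 of the TCA cycle and 4 of 7 of upper glycolysis, but 0 of 5 for glucose uptake and hexokinases and 1 of 7 for hypoxia. Pfkl (2.03), Slc16a3 (1.83), G6pdx (1.54), Idh3a (1.47) and Suclg1 (1.36) were among the largest. This comparison depended most on the scaling. With the 75th-percentile shift the median of all genes went from 0.13 to -0.13, and 10 members were higher and 4 lower (19.5% and 15.0% of all genes). The lower ones were Hk1, Ndrg1, Pfkfb3 and Pfkp, and Aldoa, Ldha and Taldo1 changed sign (-0.15, -0.27 and -0.25). The higher members then covered 0 of 4 of lower glycolysis, 1 of 4 of lactate and pyruvate fate, 2 of 4 of the pentose phosphate pathway, 3 of 9 of the TCA cycle and 3 of 7 of upper glycolysis. The call of Slc16a3 ended without any of the 4 arrays, and that of Pfkl without WT LPS+zVAD replicate 1 or Ifnar1KO LPS+zVAD replicate 2 (adjusted p up to 0.194 and 0.0986). Of the other pathway genes, 11 of 18 for the TCA cycle, 7 of 11 for pyruvate dehydrogenase, 7 of 23 for glycolysis, 3 of 8 for the pentose phosphate pathway and 7 of 21 for hypoxia were higher, and 1 glycolysis gene was lower. With the Ifnar1KO cells, the neutrophil and stromal marker sums given above were higher too.

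Replicate arrays of WT LPS differed at a particular set of members. Of the 40, 11 were over 1 log2 unit higher on replicate 2 and 1 was lower, where 8.06% of all genes were higher by as much. They were Egln3 (6.25), Bnip3 (2.58), Slc16a3 (2.45), Egln1 (1.93), Vegfa (1.83), Tpi1 (1.74), Pfkl (1.69), Pdk1 (1.36), Slc2a1 (1.35), Pgam1 (1.14) and Pfkfb4 (1.08). In Ifnar1KO LPS 0 of the 40 differed by as much. The WT slides also showed such gaps with IFN+zVAD+Nec1 (7 members higher on replicate 2, with 9.07% of all genes), IFN+zVAD (5, with 8.47%), zVAD (4, with 4.98%) and LPS+zVAD+Nec1 (4, with 6.59%), and the 2 WT slides were scanned on different days while the Ifnar1KO slides shared a day. The part of slide, scan or culture in these gaps was not tested.

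**Figure D4:**
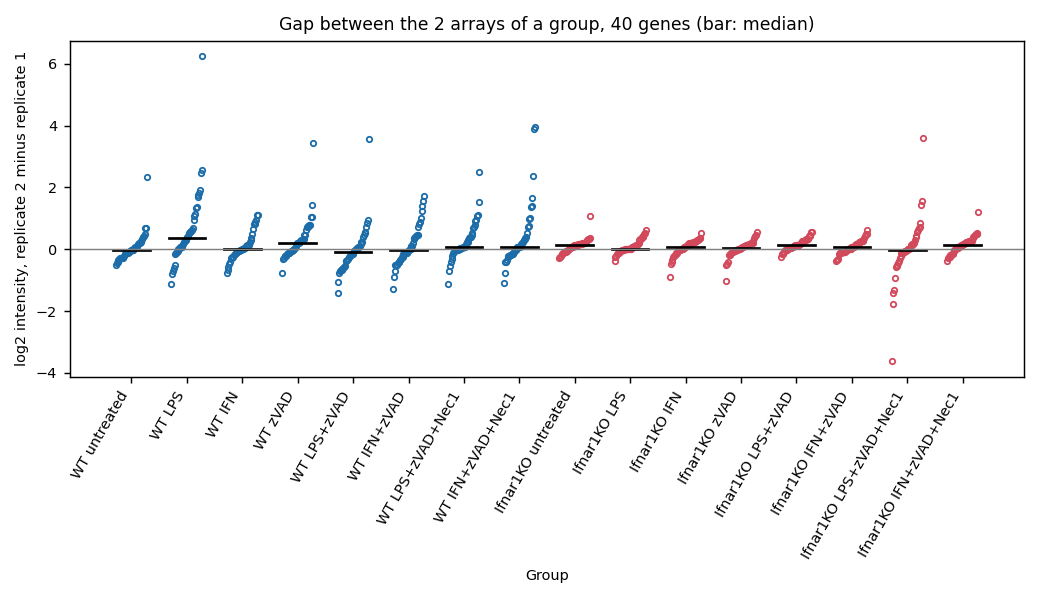
Replicate 2 minus replicate 1 of each of the 40 members in each of the 16 groups, in log2 units, with members sorted by value within a group and a bar at the median. In WT LPS 11 members lie above 1, and in Ifnar1KO LPS none.

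Probes of a gene could differ, and several members have near-identical copies elsewhere in the genome (Gapdh, Eno1, Ldha, Pgk1, Pgam1 and Aldoa), so their values are uncertain as to the copy. The annotation (mm9) places the brightest Pgk1 probe at chr3:57906830-57906894 and the next at chrX:103398646-103398700, the X chromosome holding the Pgk1 gene. With LPS in WT cells these probes gave 1.15 and 1.21, and for the genotypes with LPS+zVAD 1.27 and 1.21. Of 45 member calls with several probes above background, 3 had probes of both signs, all of them at Ogdh. The remaining members not given above were Cs (citrate synthase), with group means from 14.65 in WT LPS+zVAD to 16.01 in Ifnar1KO LPS, Pdha1 (a pyruvate dehydrogenase subunit), from 10.48 in WT LPS+zVAD to 12.02 in Ifnar1KO LPS, and Eno1 (enolase), from 15.40 in WT LPS+zVAD to 17.22 in Ifnar1KO LPS.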

How the data were processed

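Total RNA of 32 BMDM samples was hybridized with 1 dye (Cy3) to Agilent mouse arrays (mm9 annotation). The authors' scanner software (Feature Extraction 11.5.1.1) gave the deposited background-subtracted intensity of each spot. The authors also deposited a table of log2 normalized values (column medians 7.61 to 7.8), used only as an alternative; its background method and centring are not stated, and each of its 32 columns correlated best with its own array. Here, intensities were taken to log2, outlier spots (130 to 499 per array) left out, spots of a probe averaged, and the 55681 probes quantile-normalized. Of 33140 probes with a symbol, 21465 were well above background on at least 50% of arrays, and 16037 genes, each taken from its brightest probe, were fitted (limma 3.58.1, R 4.3.3) as 16 group means with 16 residual degrees of freedom. Probes well above background made up 54.9% to 78.1% of an array in WT and 44.5% to 61.6% in Ifnar1KO.

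Named members are those called with 1 direction in both same-numbered pairs, at most the 8 largest changes in a comparison, with 12 members described throughout. Members and lists were chosen with earlier results of these data known. Samples were grouped by their labels. Same-numbered arrays of a genotype shared a slide and deviated together. Of the pairs, 28 of 28 were above 0.1 in WT (median r = 0.486) and 28 of 28 in Ifnar1KO (median 0.439). An alternative therefore fitted a replicate block. It was the slide for treatment effects and their differences between genotypes, and the replicate number for Ifnar1KO against WT within a treatment. The others were a 75th-percentile shift, normexp (offset 50), no filter on dim probes, only probes above background on all arrays, the mean of probes, the slide as a random block, only the groups compared, and each array left out. Steps were tested on simulated data. Promoter windows came from RefSeq (GRCm38.p6), and figures from matplotlib 3.10.9.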

Additional observations from a re-analysis of the deposited data

Results flagged for a closer look

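For 15 results the treatment effect differed between Ifnar1KO and WT cells by the interaction term of the limma fit (adjusted p under 0.05). Values are the log2 effect in Ifnar1KO minus that in WT. For LPS, 1 of the 40 members was higher (background 3.03%) and 3 were lower (3.6%). For IFN, 5 were higher (10.3%) and 4 lower (8.54%). For LPS+zVAD against LPS, 2 were higher (2.71%) and 0 lower (0.898%). For LPS against untreated, the difference was -1.60 for Hk3, -1.54 for Pfkp, -2.99 for Pfkfb3 and 1.29 for Pgd. For IFN against untreated, it was -2.02 for Hk3, -2.45 for Pfkp, -2.65 for Pfkfb3 and -1.58 for Hif1a, so the rise seen in WT was smaller or absent from the Ifnar1KO values. It was 2.33 for Pfkfb4, 0.82 for Tkt, 3.09 for Idh1, 0.75 for Mdh1 and 2.18 for Egln1, where the WT values had fallen. For LPS+zVAD against LPS, it was 1.93 for Pfkfb3 and 1.0978 for Ogdh. Each genotype has 2 slides and each of these effects was measured within slides. The LPS and IFN differences use the same untreated arrays, and those for LPS and LPS+zVAD the same LPS arrays.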

How the results depend on the processing

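The 20 counts of called members and 91 named gene results were recomputed under each alternative, and no named result reversed. For alternatives other than the 75th-percentile shift, no share of all genes stands beside the counts of this section. Those counts therefore do not show whether the members gained or lost calls more than other genes did. Of the 91, 40 kept their side of the threshold under every alternative and 51 lost it under 1 or more. Among called members that were not named, Aldoa, Mdh2 and Taldo1 with IFN in WT and Aldoa, Ldha and Taldo1 between genotypes with LPS+zVAD changed sign under the 75th-percentile shift. By value, 916 under alternatives other than leaving out 1 array kept their side of the threshold and 72 lost it, 33 of them when only the compared groups were fitted. With 1 array left out, 313 kept it and 107 lost it. In a fit of only the groups compared, 4 members were called for LPS+zVAD against LPS in WT and 0 for its difference between genotypes, 0 for Nec1 in WT and 0 in Ifnar1KO, and, between genotypes, 4 with LPS and 14 with LPS+zVAD. Such a fit has fewer arrays to estimate the spread. Under the 75th-percentile shift the counts were 10 for IFN in WT, 1 for the zVAD difference, and 3, 9 and 14 between genotypes untreated, with LPS and with LPS+zVAD. With the authors' normalized values they were 11 for LPS in Ifnar1KO, 9 for IFN in WT, 4 for LPS+zVAD against LPS in Ifnar1KO and 0 for its difference. The split there was 6 higher and 5 lower for LPS in Ifnar1KO, 3 and 1 for LPS+zVAD in Ifnar1KO, 5 and 2 for the IFN difference, 6 and 3 for Nec1 in WT and 9 and 4 between genotypes with LPS. The zVAD difference gave 1 with normexp background and 1 with no filter on dim probes. With the replicate block the LPS difference gave 10, LPS+zVAD against LPS in Ifnar1KO 13 and its difference 4, and with the slide as a random block 10, 12 and 5. The replicate block ended no call of a member and added others. Without both Ifnar1KO LPS+zVAD+Nec1 arrays the LPS difference gave 7 and Nec1 on IFN+zVAD in Ifnar1KO 1. Nec1 on LPS+zVAD in WT then gave 15 and Ifnar1KO against WT untreated 8, and no count was lower than with all arrays. The cause of these shifts was not tested. The second-brightest probes of Gpi1 and Fh1, an alternative chosen after seeing the data, changed no named result.

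With 1 array left out, the counts ran from 15 to 26 for LPS in WT, 6 to 9 in Ifnar1KO and 3 to 6 for the difference, and from 9 to 10 for IFN in WT, 0 to 0 in Ifnar1KO and 6 to 8 for the difference. For LPS+zVAD against LPS they ran from 14 to 26 in WT, 3 to 4 in Ifnar1KO and 0 to 9 for the difference, and for Nec1 added to it from 6 to 13 in WT and 6 to 13 in Ifnar1KO. For Nec1 added to IFN+zVAD they ran from 0 to 2 in WT, with 2 without WT IFN+zVAD+Nec1 replicate 2, and for zVAD alone and zVAD added to IFN they were 0. Between genotypes they ran from 2 to 6 untreated, 10 to 21 with LPS and 18 to 20 with LPS+zVAD. Where an arm was left with 1 array, it was assumed to vary like the other groups. Signal over background limited Egln3, with 25 of 32 arrays above it, and the other 39 members were above background on all 32.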
